A study of Homo sapiens and Mus musculus with 10 samples.

Results

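Open chromatin was compared between HEK293T and HFF1, the adherent human lines among the 5 lines of a bulk ATAC-seq series. ATAC-seq marks accessible DNA by the sites where the transposase Tn5 inserts sequencing adapters. The comparison used 4 of the 10 libraries of the series, 2 of HEK293T and 2 of HFF1, and the peaks of their autosomes. HEK293T is a line from human embryonic kidney that carries the SV40 large T antigen, and HFF1 is a line of human foreskin fibroblasts. Per the labels, both were grown in the same serum-supplemented DMEM with no treatment, frozen, thawed and lysed with digitonin, and stained nuclei were sorted after tagmentation. Each line stands for itself and not for kidney or skin, and nothing in the labels says whether its 2 replicates were separate cultures. Permutation p-values therefore measure only the spread between these libraries, which may be technical.

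Accessible sites fall into promoters, which lie at gene starts, and distal elements such as enhancers and insulators. Promoters of genes that most cells use are open in most cell types, while enhancers differ more between them. In fibroblasts, many enhancers are bound by AP-1, the FOS and JUN dimers, together with TEAD, RUNX, CEBP and TWIST factors. HEK293T cells were made by transforming embryonic kidney cultures and express a mixture of kidney and neuronal genes. CTCF is the protein that binds insulators and the anchors of chromatin loops in nearly all cells.

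A region was the merged span of overlapping peaks of the 4 libraries. It was called open in a single line when both libraries of that line had a peak in it and neither library of the other did. A promoter region reached within 1 kb of a start site of a protein-coding gene in GENCODE release 44, and all others were distal. The strength of a peak is given as its deposited fold, the height of the summit relative to nearby background, which ranks peaks within a library. Coordinates are on GRCh38 and counted from 1.

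The sequences below are examples of distal regions open in a single line. Each reaches 50 bp to either side of the replicate 1 summit of one of the strongest distal regions open in a single line, taken from the plus strand. Capitals mark consensus matches on either strand, and a match is a description of the letters and not evidence of binding. The first 3 regions were open in HFF1. The region in an intron of SGCE, which encodes a sarcoglycan, lay at chr7:94620682-94621272 with folds of 21.3 and 21.1. The one at chr2:9565458-9565769 was 9761 bp from the start of ADAM17, a shedding protease, with folds of 20.1 and 19.6. The one at chr9:21591468-21592141 was intergenic, 109505 bp from the start of the interferon gene IFNE, with folds of 19.6 and 19.8. All 3 carry the AP-1 consensus.
SGCE intron: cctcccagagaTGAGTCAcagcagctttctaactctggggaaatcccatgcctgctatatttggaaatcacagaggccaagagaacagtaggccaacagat
near ADAM17: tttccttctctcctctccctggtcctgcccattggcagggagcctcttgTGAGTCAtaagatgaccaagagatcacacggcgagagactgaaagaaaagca
toward IFNE: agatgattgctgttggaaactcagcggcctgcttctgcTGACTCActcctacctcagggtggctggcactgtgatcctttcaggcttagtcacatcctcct

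A pair of further HFF1 regions carried other consensus sequences. The region in an intron of BOD1L1 at chr4:13611317-13611761, with folds of 20.8 and 20.1, holds the E-box CAGATG. The region in an intron of FRS2, an adaptor of growth factor receptors, at chr12:69534394-69534849, with folds of 21.1 and 19.8, holds the TEAD consensus on both strands.
BOD1L1 intron: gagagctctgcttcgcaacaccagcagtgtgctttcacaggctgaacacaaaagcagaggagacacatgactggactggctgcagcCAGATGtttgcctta
FRS2 intron: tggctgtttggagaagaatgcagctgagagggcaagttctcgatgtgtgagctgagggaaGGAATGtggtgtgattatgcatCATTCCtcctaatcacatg

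In HEK293T the strongest distal region lay in an intron of RYR2, which encodes a calcium release channel, at chr1:237799742-237800194, with folds of 23.7 and 22.5. It held none of the 29 motifs searched, and neither did the regions ranked 2 and 3, which are not printed. An intergenic region at chr13:67416102-67416641, 186056 bp from the start of the protocadherin gene PCDH9, had folds of 22.4 and 21.2 and held the CTCF consensus. Another at chr6:142232326-142233006, 69237 bp from the start of ADGRG6, had folds of 19.7 and 20.0 and held the forkhead consensus.
RYR2 intron: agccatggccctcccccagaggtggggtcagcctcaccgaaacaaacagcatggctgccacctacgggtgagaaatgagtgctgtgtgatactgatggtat
toward PCDH9: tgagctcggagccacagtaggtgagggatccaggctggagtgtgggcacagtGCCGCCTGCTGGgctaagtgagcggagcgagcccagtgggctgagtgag
toward ADGRG6: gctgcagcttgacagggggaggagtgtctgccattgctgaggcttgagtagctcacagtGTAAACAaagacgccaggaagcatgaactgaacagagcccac

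The depth of the lines differed. The background level of a library, the lowest common background recovered from its peaks, is proportional to its depth. It was 0.465 and 0.466 in HEK293T against 2.43 and 2.06 in HFF1, so HFF1 was 4.83 times as deep on average. HEK293T had 50482 and 50183 autosomal peaks and HFF1 had 124544 and 117703. Every count was therefore also made after the pileups and backgrounds of HFF1 were scaled down to the HEK293T level and weak peaks were dropped, which left 73066 and 75504 HFF1 peaks. The scaling matches the background level and not the height of the peaks. At distal regions open in both lines the median pileup at the summit was 17 in both HEK293T libraries and 47 and 41 in HFF1. Scaled HFF1 peaks are thus lower there than HEK293T peaks, and shared sites can count for HEK293T alone after scaling. In a second check each library kept its 40000 peaks of highest −log10 p.

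The peaks of HEK293T lay more often at promoters. The promoter share was 31.4% and 32.2% in HEK293T against 17.2% and 17.9% in HFF1, and the libraries of the lines did not overlap. The difference of 14.3 percentage points had an exact permutation p of 0.33 (two-sided), the smallest that 2 libraries against 2 allow. It was 10.2 points after scaling and 4.46 points among the 40000 best peaks. Of the HEK293T peaks 63.9% to 65.7% overlapped a peak of an HFF1 library, against 24.8% to 26.2% in the other direction.

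Of 155513 merged regions, 11057 (7.11%) were open in HEK293T alone, 69412 (44.6%) in HFF1 alone and 26278 in both lines. The remaining 48766 had a peak in some but not all libraries of a line. At promoters, 719 of 22681 regions (3.17%) were open in HEK293T alone and 5374 (23.7%) in HFF1 alone. Of 132832 distal regions, 10338 (7.78%) were open in HEK293T alone and 64038 (48.2%) in HFF1 alone. Regions open in a single line were mostly distal in either line. Promoter regions made up 6.50% of those open in HEK293T alone and 7.74% of those open in HFF1 alone, against 46.4% of those open in both. These sets have no test, since each was chosen by its line.

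With HFF1 scaled, 14138 of 107473 regions (13.2%) were open in HEK293T alone and 38423 (35.8%) in HFF1 alone. At promoters, 1381 promoter regions (7.40%) were open in HEK293T alone and 2715 (14.5%) in HFF1 alone. The distal counts were then 12757 (14.4%) and 35708 (40.2%). Scaling moved 1601 regions open in both lines, and 1465 with a peak in some libraries of a line, to HEK293T alone. Of the regions open in HFF1 alone, 55.3% kept that state after scaling, 28% had no peak left in any library and 16.7% had a peak in some libraries of a line only. Among the 40000 best peaks per library, 14167 regions were open in HEK293T alone and 17150 in HFF1 alone. Without HEK293T replicate 2, when a single HEK293T library sufficed, 16690 regions were open in HEK293T alone.

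**Figure D1:**
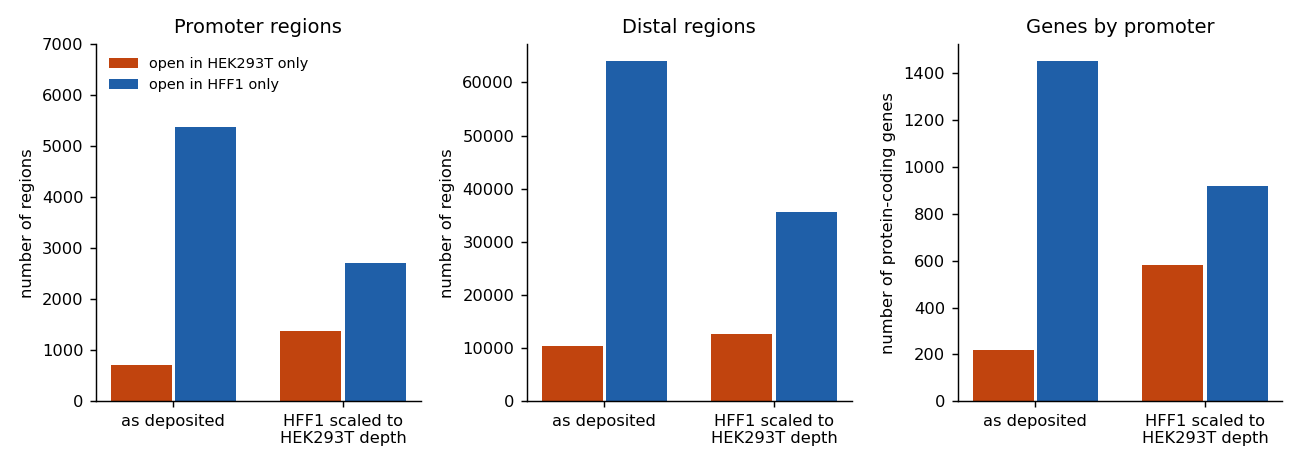
Numbers of promoter regions, distal regions and protein-coding genes open in HEK293T alone (orange) or in HFF1 alone (blue), with the lists as deposited and with HFF1 scaled to the HEK293T depth. HFF1 stays above HEK293T in each panel, at 64038 against 10338 distal regions as deposited and at 919 against 581 genes after scaling.

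The distal regions of the lines differed in where they lay. The median distance to the nearest start site was 71.6 kb for regions open in HEK293T alone, 36.9 kb for those open in HFF1 alone and 26.9 kb for those open in both. In HEK293T 43.0% of these regions were beyond 100 kb, against 24.5% in HFF1. Regions open in HFF1 alone lay in introns in 49.7% of cases, against 39.4% for HEK293T. Their median GC content was 44.2%, against 49.2% for HEK293T and 51.2% to 51.7% for regions open in both. The distance of HFF1 regions that kept their state after scaling was 36.0 kb, close to the 37.9 kb of those that did not.

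Genes were classified by any of their promoter windows. Of 19111 autosomal protein-coding genes, 220 (1.15%) had a promoter open in HEK293T alone, 1451 (7.59%) in HFF1 alone, 12224 in both lines and 4074 in no library. After scaling, 581 genes (3.04%) were open in HEK293T alone and 919 (4.81%) in HFF1 alone. Of the 581, 220 had that state as deposited, 250 had been open in both lines and 111 in some libraries of a line. Every gene that scaling added to HEK293T alone thus had a deposited HFF1 promoter peak that scaling dropped. The order turned among the 40000 best peaks per library, with 1145 genes in HEK293T alone and 700 in HFF1 alone. The deposited fold at these promoters ranged from 3.73 to 19.4 in HEK293T replicate 1 and from 2.37 to 18.2 in HFF1 replicate 1. The reference genes ACTB, a cytoskeletal actin, and GAPDH, a glycolytic enzyme, had a promoter peak in all 4 libraries. The ACTB folds were 8.28 and 7.87 in HEK293T and 5.43 and 5.66 in HFF1, and the GAPDH folds were 7.56 and 7.80 in HEK293T and 4.35 and 4.77 in HFF1.

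A promoter without a peak was not shown to be closed. Several genes that every growing cell uses had promoter peaks in HFF1 and none in HEK293T, also after scaling, and were chosen here after their values were seen. POLR2E, a subunit shared by the nuclear RNA polymerases, had folds of 11.3 in both HFF1 libraries. PSMB6, a proteasome subunit, had 12.8 and 14.2, and EEF2, the translation elongation factor, had 5.24 and 5.42. Of 80 cytosolic ribosomal protein genes 76 were open in both lines and 2, RPL19 and RPL41, in HFF1 alone. RPL41 shares its promoter window with another gene. What keeps these promoters out of the HEK293T lists was not tested.

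The lines were checked against markers of their type. Of 20 fibroblast markers 8 were open in HFF1 alone, 9 in both lines and 0 in HEK293T alone. FAP, a surface protease of activated fibroblasts, had folds of 7.13 and 7.34, and TAGLN, an actin-binding protein, 7.49 and 7.98. PDGFRB, the receptor for platelet-derived growth factor B, had 5.85 and 6.06, and the surface glycoprotein THY1 had 5.95 and 6.28. After scaling, 7 of the 20 were open in HFF1 alone. Of 20 kidney and neural genes taken as markers of HEK293T, 3 were open in HEK293T alone, 13 in both and 3 in HFF1 alone, which went against the list's name. These are 15.0% for either line, against 1.15% of all genes in HEK293T alone and 7.59% in HFF1 alone. After scaling, 7 (35.0%) were open in HEK293T alone and 3 in HFF1 alone, against 3.04% and 4.81%. Those open in HFF1 alone include PAX8, a transcription factor of kidney development, with HFF1 folds of 7.88 and 7.91.

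Markers of other cell types gave the following counts. Of 20 epithelial markers 5 (25%) were open in HFF1 alone as deposited and 0 after scaling, against 7.59% and 4.81% of all genes. No epithelial marker was open in HEK293T alone under either. EPCAM, the epithelial adhesion molecule, was open in all 4 libraries, with folds of 14.6 and 14.8 in HEK293T and of 12 and 9.96 in HFF1, and was named after its values were seen. Of 13 endothelial markers 4 (30.8%) were open in HFF1 alone and 1 (7.69%) after scaling, against 7.59% and 4.81% of all genes. PECAM1, a defining endothelial adhesion molecule, had no promoter peak in any library and was likewise named after its values were seen. Of 15 blood cell markers 12 (80.0%) had no promoter peak in any library, against 21.3% of all genes. Of 13 muscle and fat markers 1 (7.69%) was open in HEK293T alone and 2 (15.4%) in HFF1 alone. After scaling these were 2 (15.4%) and 0. All genes gave 1.15% in HEK293T alone as deposited and 3.04% after scaling.

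Innate immune genes and the fibroblast markers had the highest shares open in HFF1 alone among the 36 lists. Of 54 sensors and effectors, 22 (40.7%) were open in HFF1 alone, 25 in both and 0 in HEK293T alone, against 7.59% of all genes in HFF1 alone. After scaling, 21 genes (38.9%) were open in HFF1 alone, against 4.81% of all genes. The median fold of the 22 promoters was 9.37 and 9.07 in the HFF1 replicates, against 6.27 and 6.24 over all genes open in HFF1 alone. These are counts without a test, and the list was chosen with earlier results known.

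The members cover cytosolic DNA sensing, the inflammasome and its products, Toll-like receptors and interferon effectors. CGAS, the enzyme that senses cytosolic DNA and makes a cyclic dinucleotide, lay on chromosome 6 from 73413515 to 73452297 and had HFF1 folds of 11.6 and 11.2. STING1, the receptor of that dinucleotide, had 7.73 and 9.18. The DNA sensors IFI16 and AIM2 had 11.9 and 13.1 and 7.51 and 7.61. All 4 promoters lacked a peak in both HEK293T libraries.

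CASP1, the protease that matures interleukin 1 beta, had folds of 13.4 and 13.8 in HFF1. The cytokine genes IL1A and IL1B had 13.8 and 12.4 and 6.97 and 6.99. NLRP1, an inflammasome sensor of skin cells, had 13.9 in replicate 1 and 8.30 in replicate 2, the widest gap between replicates among the 22 genes. TLR1 and TLR6, receptors of bacterial lipopeptides, share a promoter peak with folds of 12.2 and 11.7, so they are 1 measurement. TLR2, their partner, had 6.53 and 7.27, and TLR4, the receptor of lipopolysaccharide, whose window is shared with another gene, had 8.10 and 6.09.

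Among interferon effectors, IFIT2 had folds of 11.2 and 10.7 and the adjacent oligoadenylate synthetase genes had 9.21 and 9.82 for OAS1, 10.1 in both replicates for OAS2 and 9.59 and 9.83 for OAS3. The antiviral GTPase gene MX2 had 7.66 and 7.96. CXCL8 and CCL2, which attract neutrophils and monocytes, had 6.51 and 8.96 and 5.37 and 6.33. TRIM22 was the member that did not keep its state after scaling, with folds of 5.42 and 4.43. The interleukin and interleukin receptor genes gave 16 of 71 (22.5%) open in HFF1 alone and 14 (19.7%) after scaling, against 7.59% and 4.81% of all genes. None was open in HEK293T alone. Of 19 antigen presentation genes 5 (26.3%) were open in HFF1 alone and 3 (15.8%) after scaling, against the same shares of all genes. The 5 include CIITA, the master activator of MHC class II genes, with 6.67 and 7.76.

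**Figure D2:**
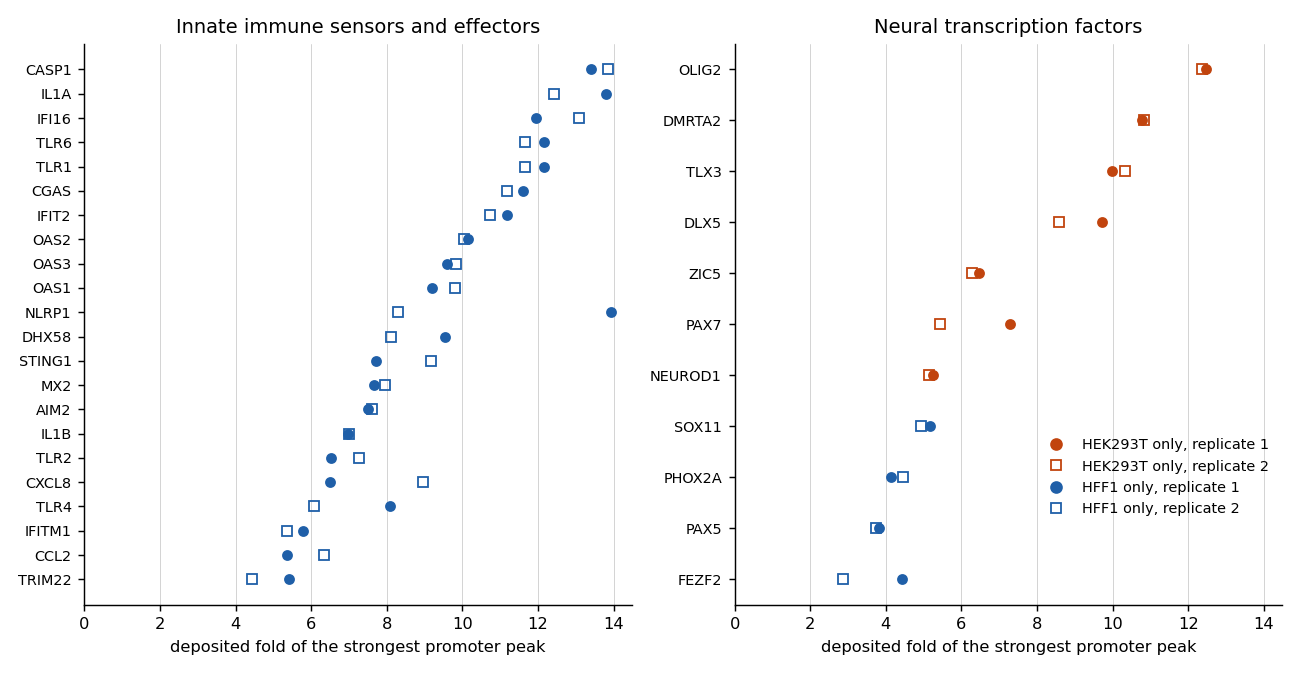
Deposited fold of the strongest promoter peak (x axis, linear) for genes with a promoter open in a single line, by replicate (filled circles replicate 1, open squares replicate 2). The left panel holds the 22 innate immune genes, all open in HFF1 alone, and the right panel the neural transcription factors, where HEK293T genes (orange) reach 12.5 (OLIG2) and HFF1 genes (blue) reach 5.17 (SOX11).

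Genes of the extracellular matrix and of adhesion were also open in HFF1 alone above the share of all genes. Of 58 matrix and matrix-remodelling genes 14 (24.1%) were open in HFF1 alone, against 7.59% of all genes, and 13 (22.4%) after scaling, against 4.81%. None was open in HEK293T alone as deposited and 1 after scaling, while 34 were open in both lines. MMP14, a membrane-bound collagenase, had folds of 9.15 and 8.80, and the secreted proteases MMP1 and MMP3 had 5.41 and 5.56 and 7.57 and 7.84. MFAP2, a microfibril protein, had 9.03 and 8.63, and FBLN2, a fibulin of elastic fibres, had 7.13 and 7.30. PCOLCE, which enhances procollagen processing, had 7.43 and 7.19.

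Of 40 adhesion and caveolar genes 10 (25%) were open in HFF1 alone, against 7.59% of all genes, and 8 (20.0%) after scaling, against 4.81%. The TGF-beta co-receptor gene ENG had folds of 8.59 and 7.67 and the caveolar gene CAVIN3 had 5.93 and 6.55. The mesenchymal cadherin gene CDH11 had 10.5 and 4.19, so its replicates differed by over 2 times. Of 45 mesenchymal transcription factors 30 were open in both lines, 5 (11.1%) in HFF1 alone and 1 (2.22%), EN1, in HEK293T alone. These shares were near the 7.59% and 1.15% of all genes. PRRX2, a homeobox gene of limb and skin mesenchyme, had 7.46 and 7.91 in HFF1, and FOXC1 had 7.31 and 7.13. EN1, also a homeobox gene, had 9.09 and 11.0 in HEK293T.

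The genes of AP-1 and of the TEAD and YAP pathway were mostly open in both lines. Of 18 AP-1 genes 16 (88.9%) were open in both lines, against 64.0% of all genes, and 1, MAFK, in HFF1 alone. The FOS promoter had folds of 7.28 and 7.68 in HEK293T and of 3.00 and 3.04 in HFF1, and JUN, named after its values were seen, had 7.81 and 7.35 against 4.10 and 3.99. Folds depend on the local background and were not compared between lines. Of 19 TEAD and YAP pathway genes 17 (89.5%) were open in both lines, against the same share of all genes, and 0 in a single line.

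**Figure D3:**
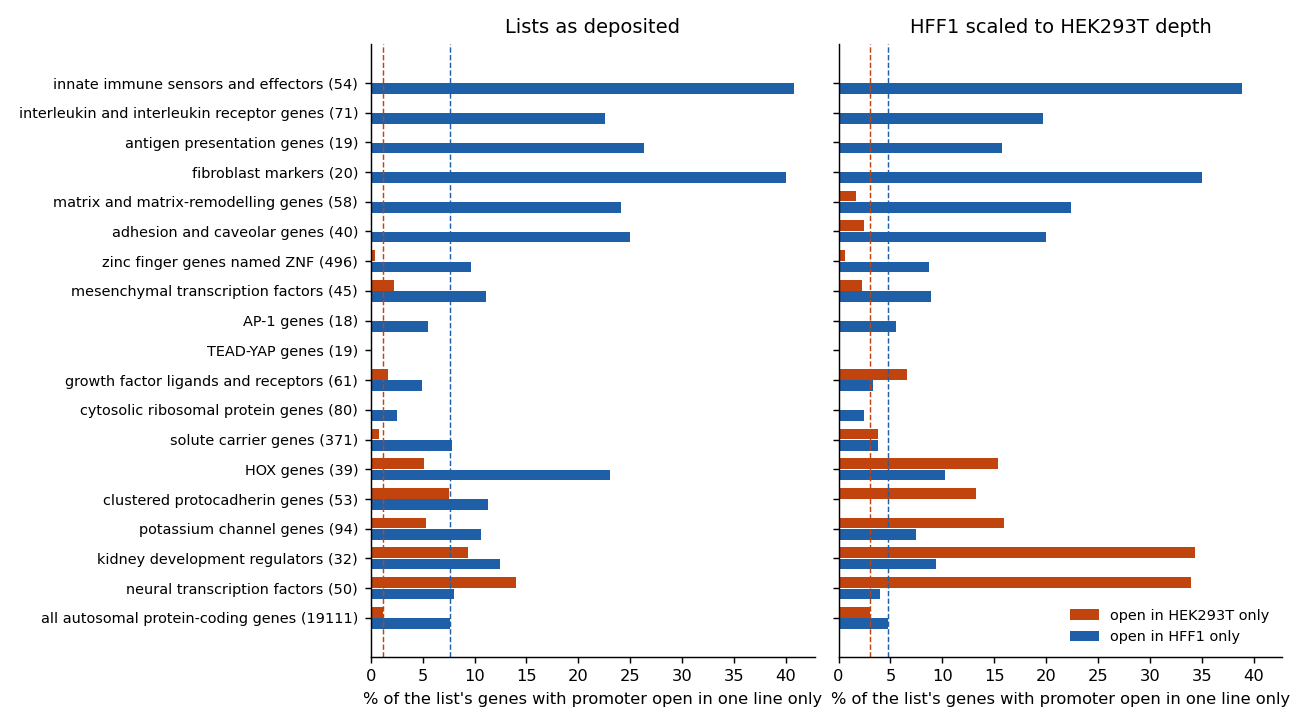
Percentage of each list's genes (x axis, number of genes in brackets) with a promoter open in HEK293T alone (orange) or HFF1 alone (blue), as deposited and after scaling. Dashed lines mark all autosomal protein-coding genes, and the innate immune list reaches 40.7% in HFF1 while the neural list reaches 34.0% in HEK293T after scaling.

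In HEK293T the lists of neural, kidney and HEK293T marker genes were above the background. Other lists were above it too, such as the LIM homeobox, T-box and forkhead genes, while lists such as the claudin genes had no member open in HEK293T alone. The kidney and HEK293T marker lists share members and are not separate observations. Of 50 neural transcription factors 7 (14.0%) were open in HEK293T alone, against 1.15% of all genes, and 4 in HFF1 alone. After scaling, 17 (34.0%) were open in HEK293T alone, against 3.04%, and 2 in HFF1 alone. The genes that scaling added here, and in the kidney and HEK293T marker lists, had a deposited HFF1 promoter peak. OLIG2, a basic helix-loop-helix factor of oligodendrocyte and motor neuron progenitors, lay on chromosome 21 and had HEK293T folds of 12.5 and 12.4. DMRTA2, a factor of the cortical hem, had 10.8 in both libraries, and TLX3, a factor of spinal interneurons, had 9.98 and 10.3. The homeobox gene DLX5 had 9.72 and 8.57. NEUROD1, a neuronal differentiation factor whose window is shared with another gene, had 5.24 and 5.13. NEUROG1, a neurogenic factor, was open in HEK293T alone only after scaling and was named after its values were seen. It had folds of 13.8 and 12.2 in HEK293T and 3.17 in HFF1 replicate 1, with no peak in replicate 2.

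Of 32 kidney development regulators 3 were open in HEK293T alone, 4 in HFF1 alone and 16 in both as deposited. These are 9.38% for HEK293T and 12.5% for HFF1, against 1.15% and 7.59% of all genes. After scaling, 11 (34.4%) were open in HEK293T alone and 3 (9.38%) in HFF1 alone, against 3.04% and 4.81%. RET, the receptor that drives branching of the ureteric bud, had folds of 5.25 and 5.83 in HEK293T. The orphan nuclear receptor gene ESRRG, named after its values were seen, was open in HEK293T alone only after scaling, with 13.5 and 14.4 in HEK293T and 6.37 and 6.11 in HFF1. Of 94 potassium channel genes 5 were open in HEK293T alone and 10 in HFF1 alone, and the order turned after scaling to 15 and 7. The HFF1 shares of 10.6% and 7.45% were near those of all genes, at 7.59% and 4.81%, while the HEK293T shares were 5.32% and 16.0% against 1.15% and 3.04%. KCNA4, a voltage-gated channel, had 12.7 and 15.4 in HEK293T and, like the HOX genes below, was named after its values were seen.

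HOX genes, which set position along the body axis, were split. Of 39 genes 9 were open in HFF1 alone, 2 in HEK293T alone and 15 in both, with 4 and 6 after scaling. These are 23.1% for HFF1 and 5.13% for HEK293T, against 7.59% and 1.15% of all genes, and 10.3% and 15.4% after scaling, against 4.81% and 3.04%. HOXB4 and HOXB7 were open in HEK293T alone, with folds of 5.79 and 4.53 and of 6.13 and 3.66. HOXB5, which lies between them, was open in HFF1 alone with 7.96 and 9.31. HOXC9, HOXD9 and HOXA7 were open in HFF1 alone with folds of 4.85 and 6.02, 5.97 and 6.36, and 5.07 and 4.88. The windows of HOXB4 and HOXC9 are shared with other genes. Clustered protocadherin genes have alternative first exons that give neurons their surface identity. Of 53 such genes 4 (7.55%) were open in HEK293T alone and 6 (11.3%) in HFF1 alone, against 1.15% and 7.59% of all genes. After scaling these were 7 (13.2%) and 0, against 3.04% and 4.81%. How reads were divided between the similar protocadherin copies is uncertain.

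The strongest promoters open in a single line were not members of the lists above. In HFF1, 7 of the 12 were zinc finger genes, and 5 of those 7 lie on chromosome 19. ZNF418 led with folds of 18.2 and 17.0, followed among them by ZNF677 with 15.7 and 16.4 and ZNF354C with 15.7 and 15.6. Over all 496 autosomal genes named ZNF, 48 (9.68%) were open in HFF1 alone and 43 (8.67%) after scaling, and 2 in HEK293T alone. All genes gave 7.59% and 4.81% in HFF1 alone, so the deposited share was near that of all genes. The median fold of the 48 was 12 and 11.7. Many of these genes are repressors of transposable elements, and similar copies make it uncertain where their reads were placed. The other 5 were GDPD4, RNLS, ACSM3, TMEM71 and POLR2J2, and POLR2J2 has near-identical copies nearby.

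In HEK293T the strongest was C6orf118 on chromosome 6, with folds of 19.4 and 18.3. PCDH15, a cadherin of inner ear hair cells, had 15.8 and 17.1, the neuronal cadherin gene CDH10 had 15.8 in both libraries and GLRA3, a glycine receptor subunit, had 15.3 and 15.7. HS3ST1, a heparan sulfate sulfotransferase, had 16.1 and 14.8, and NKX2-3, a homeobox gene of gut and spleen, had 14.6 and 16.0. The other 6 were TMEM63C, STRA8, NPFFR2, PRSS51, OLFM3 and SPINK2, and 4 of the 12 lie on chromosome 4. Genes with a promoter open in a single line had a lower CpG ratio than shared ones. The ratio of observed to expected CpG was taken around the annotated gene start, which need not be the open window. Its median was 0.62 for HEK293T, 0.48 for HFF1 and 0.76 for genes open in both. After scaling the medians were 0.70, 0.49 and 0.76.

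Some genes had different promoter windows open in the lines. Of 7631 genes with more than 1 separate promoter window, 54 had a window open in HEK293T alone and another open in HFF1 alone, and 68 had after scaling, with 39 in both sets. ROBO1, a receptor for axon guidance, had a window at chr3:79766998-79768998 with folds of 10.5 and 7.27 in HEK293T and another at chr3:78633580-78635580 with 12 and 12.7 in HFF1. AKAP1, an anchoring protein of the mitochondrion, had 9.05 and 8.36 at chr17:57113489-57117133 in HEK293T and 12.7 and 12.6 at chr17:57094844-57099437 in HFF1. VGLL4, a repressor of TEAD factors, had 1 window open in HEK293T alone and several open in HFF1 alone. These genes were chosen after their values were seen.

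Distal regions were then counted within 100 kb of each gene's annotated start. For a gene with several start sites this can lie away from the open promoter window. Genes with a promoter open in HEK293T alone had 1.16 distal HEK293T regions on average, against 0.640 over all genes, and 62.7% had at least 1, against 42.9%. They had 2.57 distal HFF1 regions, against 5.70 over all genes. For these same 220 genes the order turned with scaled distal regions, at 1.5 distal HEK293T and 1.36 distal HFF1 regions. All genes then had 0.877 and 3.26. The order did not turn for the 581 genes open in HEK293T alone after scaling, which had 1.41 distal HEK293T and 1.77 distal HFF1 regions. Genes open in HFF1 alone had 6.80 distal HFF1 regions and 0.60 distal HEK293T regions. These means were not tested.

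Among the lists, fibroblast markers had 12.4 distal HFF1 regions per gene and matrix genes 12.9, against 5.70 over all genes. After scaling the means were 7.45 and 7.59, against 3.26 over all genes. As deposited, AP-1 genes had 8.89, innate immune genes 7.52 and neural transcription factors 3.6, and after scaling these were 5.61, 4.26 and 1.8. Distal HEK293T regions numbered 1.67 per HOX gene, 1.58 per LIM homeobox gene and 1.14 per neural transcription factor, against 0.640 over all genes. HOX genes lie in tight clusters and count the same regions repeatedly.

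Single genes with most distal regions were named by count. In HFF1, ENSG00000258989, a gene without a symbol in the annotation, led with 31 distal HFF1 regions and 18 after scaling. The divergent basement membrane collagen genes COL4A1 and COL4A2 shared 25 distal HFF1 regions, and COL5A1, a fibrillar collagen gene, also had 25. FOS had 24, with 0 distal HEK293T regions, and the neighbouring cytokine genes IL10 and IL19 had 24. After scaling COL4A1 and COL4A2 kept 10, COL5A1 15, FOS 14 and IL10 16. In HEK293T HAND1, a heart and limb factor, led with 11 distal HEK293T regions and its neighbour SAP30L had 10. POU4F1, a factor of sensory neurons, and its neighbour OBI1 had 8, against 1 distal HFF1 region. CEP44, with a promoter open in both lines, had 7. ZP4 had 8, and AGBL1 and the neighbouring genes DEFA1, DEFA1B and DEFA3 had 7, all without a promoter peak in any library. The promoters of COL4A1, COL5A1, FOS, HAND1 and POU4F1 were open in both lines as deposited. After scaling POU4F1 was open in HEK293T alone and HAND1 in some libraries.

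The sequence of distal regions was searched for 29 consensus motifs on both strands within 50 bp of the summit. The share with a match was compared with regions open in both lines and with the same motif 1000 bp from the summit. The 2 libraries of a line share the regions, so the SD between them covers only where the summit was placed. No test was made for this reason.

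AP-1 gave the widest difference. Its consensus TGANTCA, with any base in the middle, was found in 17.7% of all distal regions. It was present in 25.5% ± 0.19 of regions open in HFF1 alone (SD, n = 2) and 3.14% of windows 1000 bp away. In regions open in HEK293T alone it was present in 3.36% ± 0.11, beside 3.34% away from the summit, so it was not above its surroundings there. Regions open in both lines lay between, at 5.83% at HEK293T summits and 8.10% at HFF1 summits. The HFF1 regions were also divided into 4 equal groups by fold. The AP-1 share was 17.5% in the group of lowest fold and 35.1% in that of highest fold in replicate 1, and 17.0% and 35.0% in replicate 2. Of HFF1 regions that kept their state after scaling 30.0% had a match, against 19.9% of the others.

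**Figure D4:**
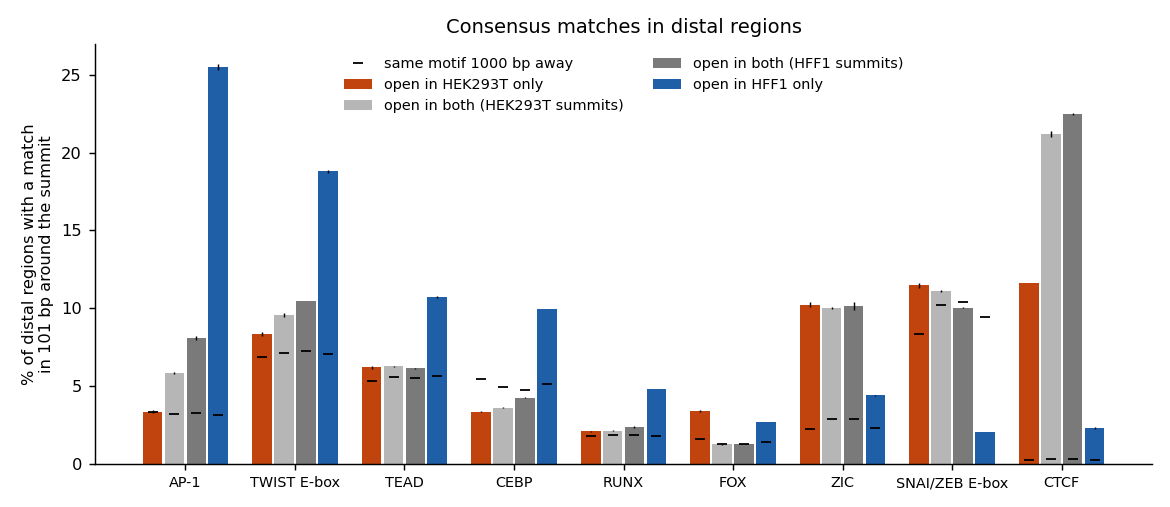
Percentage of distal regions with a consensus match within 50 bp of the summit, for regions open in HEK293T alone (orange), in both lines (greys, at the summits of each line) and in HFF1 alone (blue). Bars are means of 2 libraries with SD and black dashes the same motif 1000 bp away; AP-1 reaches 25.5% in HFF1 and CTCF 11.6% in HEK293T.

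The E-boxes, the 6-base sites of basic helix-loop-helix and zinc finger factors, moved in opposite directions. The TWIST E-box CATCTG, read CAGATG on the other strand, was found in 15.3% of all distal regions. It was present in 18.8% ± 0.09 of regions open in HFF1 alone, 8.35% ± 0.11 of those open in HEK293T alone and 9.54% to 10.5% of those open in both. The SNAI/ZEB E-box CAGGTG was found in 4.84% of all distal regions. It was present in 11.5% ± 0.16 of regions open in HEK293T alone, in 10.0% to 11.1% of those open in both and in 2.04% ± 0.02 of those open in HFF1 alone. In HFF1 this lay below its own surroundings, at 9.46% of windows 1000 bp away. Regions open in HEK293T alone had 8.32% there. Regions open in both had 10.2% there for HEK293T summits and 10.4% for HFF1 summits, so at HFF1 summits they were not above their surroundings. The CTCF consensus can contain CAGGTG, and its share without CTCF matches was not counted. SNAI and ZEB factors are repressors that bind this E-box, and TWIST factors are activators of mesenchymal genes.

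The share of CAGGTG was 2.00% in HFF1 regions that kept their state after scaling and 2.08% in the others, and lay between 1.7% and 2.4% in each of the 4 fold groups in both HFF1 libraries. All 10 forms of CANNTG were then searched, a choice made after these shares were seen. CAGATG had the widest excess in HFF1 over its surroundings, at 18.8% against 7.08%. CAGCTG followed at 12% against 4.23% and CACATG at 12% against 6.57%. CAGCTG also exceeded its surroundings in HEK293T, at 8.65% against 3.77%. CAGGTG, read CACCTG on the other strand, was the form with the deepest loss in HFF1, and CAAGTG, at 5.98% against 6.49%, was the only other one below its surroundings.

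The matches were then placed by distance from the summit. In HFF1 regions the AP-1 consensus was centred within 5 bp of the summit in 3.70% of regions, against 0.40% in the 10-bp bin 190 bp before it. CAGGTG ran the other way, with 0.22% of HFF1 regions in the bin at the summit and 0.76% in the bin 190 bp before it. In regions open in both lines, CAGGTG peaked at the summit with 1.72%, against 0.99% in the bin 190 bp before it. Sites inside a CTCF match were not set apart. CATCTG was found at the summit in 2.45% of HFF1 regions.

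**Figure D5:**
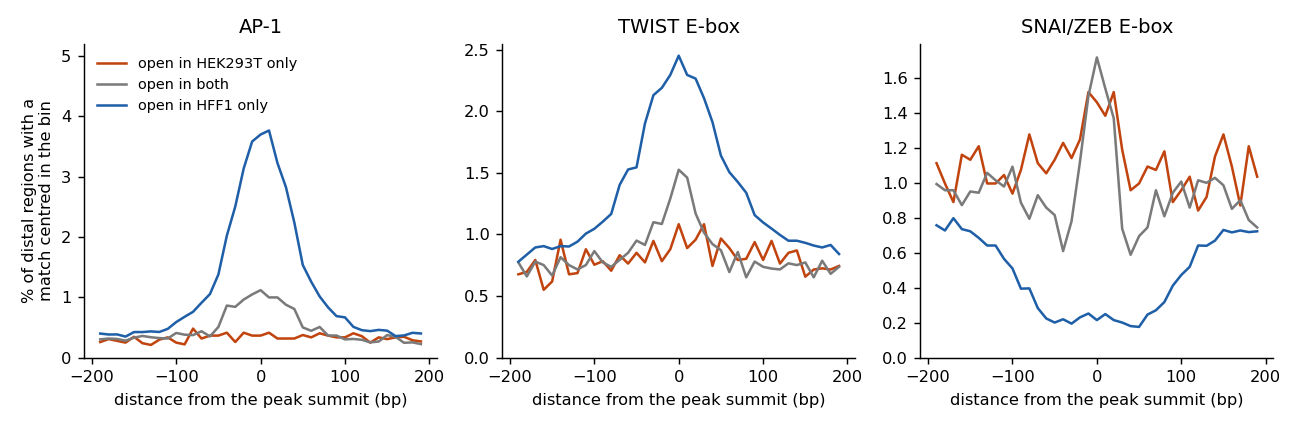
Percentage of distal regions with a match centred in each 10-bp bin, against the distance from the replicate 1 summit in bp, for regions open in HEK293T alone (orange), both lines (grey, HFF1 summits) and HFF1 alone (blue). The y axes differ between panels; AP-1 and the TWIST E-box rise to the summit in HFF1 while the SNAI/ZEB E-box stands at 0.22% there.

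Further motifs of fibroblast factors were higher in HFF1. The CEBP consensus TTGCNNAA, in 7.80% of all distal regions, was present in 9.95% of HFF1 regions and 3.35% of HEK293T regions, with 5.15% and 5.47% away from the summits. The TEAD consensus GGAATG, in 9.11% of all, was present in 10.7% and 6.21%, and the RUNX consensus TGTGGTT, in 3.86% of all, in 4.83% and 2.09%. The NF-kB consensus was rare, in 0.18% of all, at 0.27% of HFF1 regions and 0.01% of HEK293T regions. HFF1 regions with and without an AP-1 match were compared for 8 other motifs, without a test. In replicate 1 a TEAD match was present in 9.61% of those with AP-1 and 11.1% of those without, and a CEBP match in 7.94% and 10.6%.

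The CTCF, ZIC and forkhead motifs were more frequent in HEK293T regions than in HFF1 regions. The CTCF consensus, in 6.24% of all distal regions, was present in 11.6% ± 0.01 of HEK293T regions, 2.30% ± 0.04 of HFF1 regions and 21.2% to 22.5% of regions open in both, with 0.25% and 0.28% away from the summits. In HEK293T its share was 7.85% in the group of lowest fold and 15.4% in that of highest fold in replicate 1. The ZIC consensus CAGCAGG, in 6.06% of all, was present in 10.2% of HEK293T regions, 4.40% of HFF1 regions and 10.0% to 10.1% of shared regions. CAGCAGG can overlap a CTCF match, and without regions holding a CTCF match it stood at 9.29% and 9.49% in the HEK293T libraries and 4.22% and 4.26% in HFF1. ZIC2, which encodes a factor of this family, had a promoter open in both lines, with folds of 6.25 and 5.89 in HEK293T and 3.65 in both HFF1 libraries, and was named after its values were seen. The forkhead consensus TGTTTAC, in 2.4% of all, was present in 3.37% of HEK293T regions, 2.71% of HFF1 regions and 1.26% to 1.27% of shared regions.

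The other motifs were each found in at most 4.19% of all distal regions. The ETS motif was searched as CCGGAAG, the homeobox motif of HOX13 proteins as CCAATAAA and that of MEIS proteins as TGACAGNT. The STAT motif was searched as TTCCNGGAA, the motif of SOX factors as CCATTGTT and the octamer of POU factors as ATGCAAAT. The LHX motif was searched as CTAATTAG, the motif shared by TCF and LEF factors as ATCAAAG and the motif of GLI factors as TGGGTGGTC. The NFY motif was searched as ATTGGCT, the motif shared by SP and KLF factors as GGGCGGGG, the CREB motif as TGACGTCA and the GATA motif as AGATAA. The motifs of CTCF, NF-kB, NFI, SRF, HNF1, NR2F, NRF1 and REST are longer and are given by name. GATA was the most frequent of them, in 4.19% of all distal regions, and was below its surroundings in both lines, at 4.14% against 7.59% in HEK293T and 4.33% against 6.66% in HFF1. SP/KLF was in 1.12% of all, at 1.84% of HEK293T regions, 0.65% of HFF1 regions and 3.47% to 3.70% of shared regions. REST, the repressor of neuronal genes, was in 0.14% of all, at 0.05% of HEK293T regions and 0.11% of HFF1 regions.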

How the data were processed

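The authors deposited 1 narrowPeak list per library. Per the submitters' processing notes, cutadapt 3.2, Bowtie2 2.4.2, Picard and MACS2 2.2.7.1 were used. Each deposited peak has a fold (a linear ratio of summit to background), −log10 p and −log10 q values and a score; the lowest deposited −log10 q was 2.00 to 2.05. Build and gene models were GRCh38 and GENCODE 44. Pileup and background were recovered by solving fold and −log10 p together, which succeeded for 100% of peaks within 0.001. For scaling, both were divided for HFF1 down to the HEK293T level, and peaks with a recomputed −log10 p of at least 4.18426 were kept. The recovery and calls were tested on simulated data. Presence needed an overlap of 1 bp. Tools were Python 3.11.15, numpy 2.4.6, pandas 2.3.3, scipy 1.17.1 and pysam 0.24.0. Pileups are PCR reads without molecular identifiers, so they are not independent molecules, and the lists give no interval for counting error.

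Named are members of the gene lists with a promoter open in a single line, the 12 genes per line of highest lower-of-replicates fold without shared windows, the 10 genes per line with most distal regions, the 8 strongest distal regions per line, and ACTB and GAPDH. Others are named as chosen after their values were seen. Regions, lists and motifs were chosen with earlier results of these data known. Alternatives were another q minimum, scaling, lists of equal length, leaving out each library, other windows, merging and overlap, and other motif backgrounds.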

Additional observations from a re-analysis of the deposited data

How the results depend on the processing

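With HFF1 scaled, 581 genes and 14138 regions were open in HEK293T alone and 919 genes and 38423 regions in HFF1 alone. With 40000 peaks per library these were 1145 genes and 14167 regions in HEK293T and 700 genes and 17150 regions in HFF1, so the order of the gene counts turned. Leaving out 1 library gave 11714 to 16690 regions open in HEK293T alone, since a line then rested on a single library. The other 56 values kept their direction (peak number, promoter share and width) or stayed within 1.5 times (region and gene counts). The replicate block, which paired libraries by number, left the promoter share difference at 14.3 points with an exact permutation p of 0.5, the smallest it allows, and gave the same p for peak number and width. No paired analysis was possible for counts of regions and genes because they come from no test. Subtracting the reversed consensus turned the HFF1 minus HEK293T difference for GATA (-1.66 points), HNF1 (-0.00171), LHX (-0.0479), TCF/LEF (-0.436) and GLI (0.110), and a window of 100 bp on either side turned NRF1 (-0.00325). None of these motifs carries a result. The cause of these changes was not tested. Depth limits HEK293T most: its peaks had a median summit pileup of 16 against 33 and 30 in HFF1, so weak sites open in both lines can count for HFF1 alone.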

Other observations

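Further gene families were counted after the genes open in a single line had been seen, so they are descriptions of a choice made on these values. Of 28 guanylate-binding, OAS, IFI and IFIT genes, which are induced by interferon, 15 (53.6%) were open in HFF1 alone, 6 in both and 0 in HEK293T alone, with 13 in HFF1 alone after scaling. GBP2, a guanylate-binding GTPase, had HFF1 folds of 12.1 and 12.4. Of 39 chemokine ligand genes 13 (33.3%) were open in HFF1 alone, 10 after scaling and 0 in HEK293T alone. CCL7, which attracts monocytes, had 13.1 and 13.4, and CXCL10 had 11.6 and 9.45. All genes gave 7.59% and 4.81% under the same rules.

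Of 91 neurotransmitter receptor genes 9 (9.89%) were open in HEK293T alone and 7 in HFF1 alone, and 19 and 2 after scaling, against 1.15% and 3.04% of all genes for HEK293T. GRM3, a glutamate receptor, had HEK293T folds of 11.8 and 12.6, and HTR3A, a serotonin-gated channel, 10.7 and 9.22. Both genes had 0 distal HFF1 regions within 100 kb. Of 30 classical and desmosomal cadherin genes 6 (20.0%) were open in HEK293T alone and 4 (13.3%) in HFF1 alone. All genes gave 1.15% and 7.59%. After scaling the cadherin counts were 7 (23.3%) and 3 (10.0%), against 3.04% and 4.81% of all genes. The desmosomal genes DSG2, DSC2 and DSC3 had HEK293T folds of 11.6 and 12.5, 7.73 and 7.99, and 8.53 and 9.43, and their partner PKP2 had 7.88 and 7.95, while none had a promoter peak in HFF1. The epithelial adhesion gene CDH1 had a peak in HEK293T replicate 2 only, with a fold of 5.46.

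The share of HEK293T among regions open in a single line differed between chromosomes. It was 13.7% over all autosomes, highest on chromosome 13 at 26.0%, chromosome 4 at 24.2% and chromosome 21 at 20.3%, and lowest on chromosome 22 at 6.91%. After scaling, chromosomes 13 and 4 were still highest at 43.1% and 42.2%, against 26.9% over all. Copy number of the lines was not analysed here.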
